A study of Drosophila melanogaster with 9 samples.

Results

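Of 10 genes that encode subunits of the Domino and Tip60 chromatin complexes, Nipped-A was the only one whose mRNA changed by more than 1.3-fold after Hrb98DE knockdown. It fell to 50.5% ± 7.81 of the lacZ mean in KD1 cells and to 54.7% ± 7.78 in KD2 cells (SD, n = 3 each). The paired ATPases pont and rept rose by 1.2- to 1.25-fold under both knockdowns, and dom rose in KD2. The other 6 members did not pass the test in either knockdown. The 10 genes were listed by name as dom, Tip60, Nipped-A, E(Pc), pont, rept, MRG15, Ing3, YL-1 and Gas41. All 10 were found among the 17559 gene identifiers of every count file, and all 10 were among the 7406 genes with enough reads to be tested. The comparison asked whether the mRNAs of the partner subunits change when Hrb98DE is depleted, because the splicing of dom depends on Hrb98DE in the study.

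RNA sequencing was carried out on S2R+ cells, an adherent Drosophila melanogaster line of embryonic origin whose strain is labelled Oregon R. Hrb98DE, an RNA-binding protein of the hnRNP A family that acts in splicing, was depleted with either of 2 distinct double-stranded RNAs (dsRNAs), giving the KD1 and the KD2 cells. The lacZ control cells received a dsRNA against a bacterial gene that flies lack. All 3 groups therefore went through the same dsRNA uptake, by 6 h of serum starvation in repeated treatments at 25 °C, and were collected on day 5. Each group had 3 replicates. The titles give the KD1 samples the numbers 1, 3 and 4, the KD2 samples 1, 2 and 4 and the lacZ samples 1, 2 and 3. The methods of the study call the replicates biological and describe more of them per dsRNA, which were not analysed here. Neither the methods nor the labels say whether they were separate cultures, so p-values measure only the spread between these samples. In bulk RNA, fewer cells of a type and less RNA per cell cannot be told apart.

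Chromatin remodellers of the INO80/SWR1 family exchange histone variants within nucleosomes. In the fly the ATPase Domino sits in 2 assemblies, and the longer isoform shares its complex with the acetyltransferase Tip60. The Tip60 assembly acetylates the phosphorylated histone variant encoded by His2Av at DNA breaks and helps to exchange it, and it also acts in Notch signalling and blood cell development. Domino itself was named for the melanised lymph glands of its mutants.

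The 9 libraries held between 13040608 and 15931035 counted reads. The 10 members together took between 1582 and 1820 CPM (counts scaled to a common library total), with the highest share in lacZ replicate 2. Hrb98DE fell in both knockdowns, with log2 fold changes of -2.83 in KD1 and -2.69 in KD2. Its paralogue Hrb87F fell as well (-1.26 in KD1 and -2.10 in KD2), and the part of that fall in the results was not tested. Of 9 hemocyte markers, the cell type S2R+ cells resemble, 8 were tested and NimC1 was nearly absent. The markers summed to 11470 to 11650 normalised counts in KD1, 11660 to 12120 in KD2 and 11180 to 11690 in lacZ samples. Of the 8, 4 rose in each knockdown (Hml, Col4a1, vkg and Pxn), where 9.71% of all genes tested rose in KD1 and 11.3% in KD2. Hml rose by 0.71 in KD1 and 0.73 in KD2 on the log2 scale. The other 4 were not called in either, and of these eater (-0.31 in KD1 and -0.34 in KD2) lay below every lacZ sample in both knockdowns and fell in their average (-0.32, DESeq2 adjusted p = 0.0286). The log2 fold changes of He were -0.67 in KD1 and -0.48 in KD2, those of crq -0.10 and -0.15, and those of srp -0.03 and 0.12. Muscle markers (Mhc, Mlc1 and Act57B) summed to at most 4.71 normalised counts in any sample. Fat body markers summed to at most 47.3, with Lsp1alpha, Lsp2 and Fbp1 nearly absent. Neuron markers summed to at most 419.1, with nSyb and Syt1 nearly absent. The neuron marker elav was present, at means of 324.4 in KD1, 373.6 in KD2 and 378.9 in lacZ samples. Germline markers summed to at most 3333, with nanos nearly absent. Of these, aub had means of 2878 in KD1, 2805 in KD2 and 2670 in lacZ samples, and bam 276.1, 288.6 and 279.5. The listed markers para, vas and wupA were not matched to an identifier. The part of these markers in the results was not tested.

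Counts were scaled by size factors to normalised read counts, and differences were tested with DESeq2 on all genes. A gene was called when its Benjamini-Hochberg adjusted p was under 0.05, and "rose" and "fell" are used of called genes only. Both comparisons use the same lacZ samples. In KD1 against lacZ, 3 of the 10 members were called (2 rose and 1 fell), where 21.2% of all genes tested were called (9.71% rose and 11.5% fell). In KD2 against lacZ, 4 of 10 were called (3 rose and 1 fell), where the share of all genes was 23.6% (11.3% rose and 12.3% fell). The median log2 fold change of the 10 members was 0.03 in KD1 and 0.05 in KD2, against 0.00 over all genes tested in both comparisons. With a further limit of 1.3-fold, 1 member was called in KD1, beside 7.37% of all genes, and 1 in KD2, beside 8.13%. The plot of read counts shows every sample of every member.

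**Figure D1:**
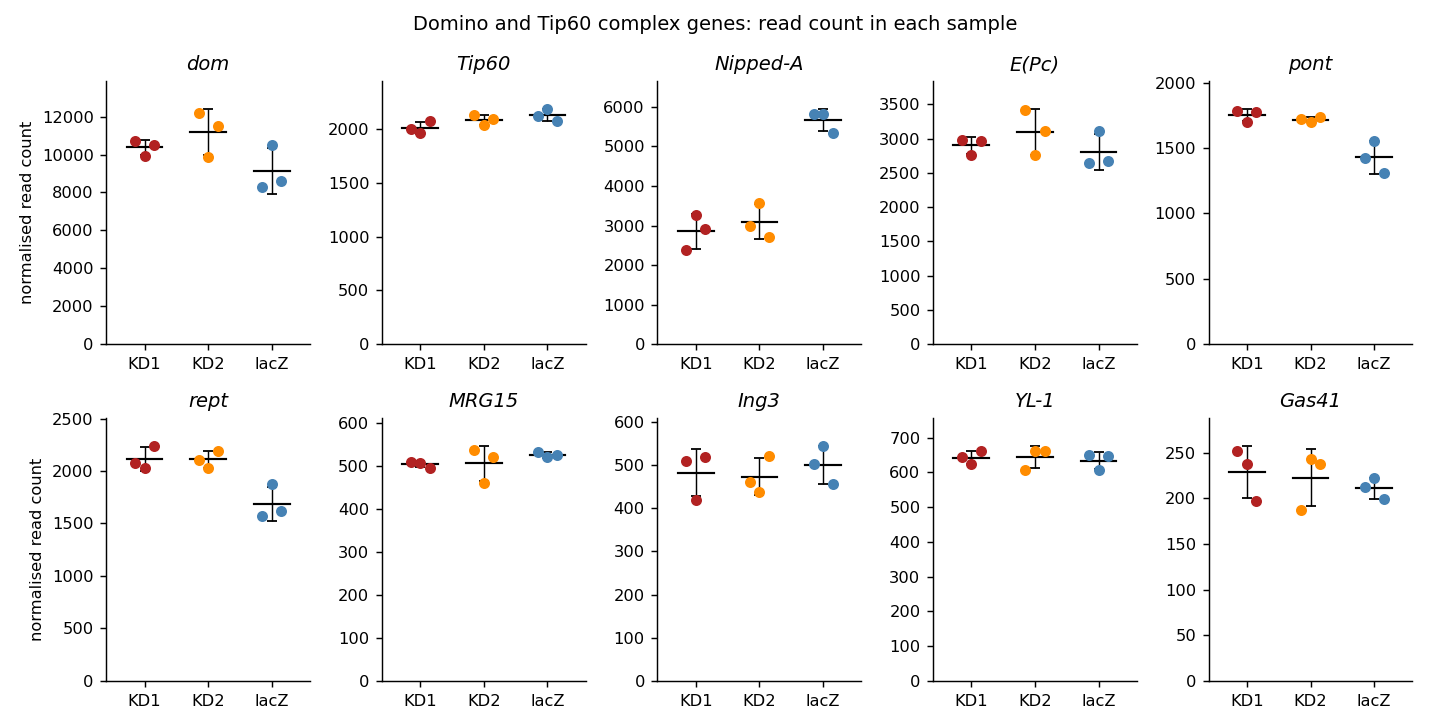
Normalised read count (vertical axis, from 0) of each member in each of the 9 samples. Points are samples, horizontal lines are group means and bars are SDs (n = 3). Nipped-A is at 2389 to 3581 in all 6 knockdown samples and at 5336 or more in the lacZ samples, pont and rept are above lacZ in every knockdown sample, and the groups overlap for dom.

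The scaffold subunit changed most. Nipped-A, the fly homologue of the mammalian TRRAP, is a very large protein of the phosphatidylinositol 3-kinase-related family without kinase activity, which contacts activators and is shared between the Tip60 and SAGA acetyltransferase complexes. Its normalised counts were 2389, 3267 and 2919 in KD1 replicates 1, 3 and 4. They were 2992, 3581 and 2720 in KD2 replicates 1, 2 and 4, and 5823, 5821 and 5336 in the lacZ replicates. Every knockdown sample was below every lacZ sample, and the highest knockdown value, in KD2 replicate 2, was still well under the lowest lacZ value. Its log2 fold changes, with SEs, were -0.99 ± 0.15 in KD1 (DESeq2 adjusted p = 9.90e-10) and -0.87 ± 0.15 in KD2 (adjusted p = 9.47e-08). Ranked by fold change, Nipped-A was 89th of the 852 genes that fell in KD1 and 110th of the 911 that fell in KD2. It fell under all 21 alternatives tried in each comparison.

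The paired ATPases moved the other way. Pontin (pont) and Reptin (rept) are related AAA+ ATPases that form a mixed ring in the Tip60, Domino and INO80 complexes and in the R2TP chaperone. Normalised counts of pont were 1783, 1701 and 1771 in KD1, 1719, 1697 and 1733 in KD2, and 1422, 1555 and 1305 in lacZ samples. Those of rept were 2074, 2029 and 2239 in KD1, 2106, 2033 and 2193 in KD2, and 1576, 1872 and 1616 in lacZ samples. For both genes each knockdown sample was above each lacZ sample, with lacZ replicate 2 the nearest. The log2 fold change of pont was 0.29 ± 0.07 in KD1 (DESeq2 adjusted p = 0.000135) and 0.26 ± 0.07 in KD2 (adjusted p = 0.000646). Its call was lost under 2 of 21 alternatives in KD2 and under none in KD1. That of rept was 0.32 ± 0.07 in both KD1 (DESeq2 adjusted p = 0.000101) and KD2 (adjusted p = 9.60e-05). The ratio of rept to pont per exon length was 1.13 ± 0.05 in KD1, 1.15 ± 0.03 in KD2 and 1.11 ± 0.06 in lacZ samples (SD, n = 3), so these ranges overlapped. The 2 partners of pont and rept in R2TP did not pass the test in either comparison.

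The ATPase dom, which gives the complex its name, had the most reads of the 10. Its normalised counts were 10710, 9947 and 10490 in KD1, 12180, 9856 and 11530 in KD2, and 8291, 10500 and 8600 in lacZ samples. The groups overlapped with lacZ replicate 2 high, within the range of both knockdowns. The log2 fold change was 0.29 ± 0.09 in KD2, where dom rose (DESeq2 adjusted p = 0.00517), and 0.19 ± 0.09 in KD1, where it did not pass (adjusted p = 0.115). The call in KD2 was lost without KD2 replicate 1 (0.23, adjusted p = 0.0594) and without lacZ replicate 1 (0.23, adjusted p = 0.0593), with DESeq2 adjusted p from 1.34e-07 to 0.139 over its alternatives. In KD1, dom passed without lacZ replicate 2 (log2 fold change 0.30, DESeq2 adjusted p = 0.000463), which moved the value by over 1.5 times, and without KD2 replicate 2 (0.19, adjusted p = 0.0413), with a range of 6.81e-07 to 0.438. Libraries also differed in how counts depended on exon length. The slope of log2 relative count on log2 exon length was 0.04 in KD2 replicate 1 and 0.02 in lacZ replicate 2, the highest of the 9, which are also the libraries where dom was highest within its group. In KD1 the slopes were -0.03, -0.03 and 0.00, and dom was highest in replicate 1, where the slope was lowest. After correction for that slope dom rose in KD1 too (0.27, DESeq2 adjusted p = 0.00317) and in KD2 (0.28, adjusted p = 0.00127). The cause of the spread of dom between libraries was not tested. Gene-level counts sum all isoforms, so the share of the long and short dom isoforms was not measured here. The study lists dom among genes that changed in protein but not in mRNA, with a limit of 1.3-fold on mRNA. It used the knockdown with the greater Hrb98DE depletion and does not say there whether this was KD1 or KD2. Here Hrb98DE had the lower log2 fold change in KD1 (-2.83, beside -2.69 in KD2). That difference did not pass in KD1 against KD2 (DESeq2 adjusted p = 0.562). The rise of dom in KD2 was called here without a fold limit and, at 0.29, lay under 1.3-fold. With that limit dom was not called in either knockdown, as in the list of the study. The study also reports a switch between dom isoforms in the protein data.

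E(Pc), the Enhancer of Polycomb, has yeast and human counterparts that tie the acetyltransferase to the rest of its complex. Its normalised counts were 2983, 2764 and 2968 in KD1, 3420, 2756 and 3119 in KD2, and 2639, 3114 and 2680 in lacZ samples. Its groups overlapped, with KD2 replicate 1 and lacZ replicate 2 high as for dom. The log2 fold change was 0.05 ± 0.08 in KD1 (DESeq2 adjusted p = 0.743) and 0.14 ± 0.08 in KD2 (adjusted p = 0.214). E(Pc) passed in KD2 without KD2 replicate 2 (0.22, DESeq2 adjusted p = 0.0183) and without lacZ replicate 2 (0.22, adjusted p = 0.0203), with a range of 0.0183 to 0.731 over its alternatives. The ratio of E(Pc) to dom per exon length was 0.333 ± 0.003 in KD1, 0.329 ± 0.007 in KD2 and 0.367 ± 0.013 in lacZ samples (SD, n = 3), with both knockdown ranges below the lacZ range.

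The acetyltransferase itself moved little. Tip60, which acetylates histone tails, had 2005, 1965 and 2074 normalised counts in KD1, 2132, 2042 and 2093 in KD2, and 2126, 2186 and 2077 in lacZ samples. All KD1 samples were below the lacZ samples by a narrow margin, while the KD2 samples overlapped them. The log2 fold change was -0.08 in KD1 (95% interval -0.18 to 0.02) and -0.03 in KD2 (-0.13 to 0.07). Tip60 shares 376 exon bases with tyf, an antisense neighbour with several times its reads, and 130 with dgt4. Neither neighbour passed the test.

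The 4 small subunits also stayed inside 1.3-fold. MRG15, a chromodomain protein that binds methylated histone H3, ranged from 494.8 to 507.5 normalised counts in KD1, from 459.7 to 536.6 in KD2 and from 518.9 to 532.7 in lacZ samples, so that only KD1 lay apart from lacZ. MRG15 shares 129 exon bases with l(3)neo43 on its own strand and 35 with the antisense gene CG4338, and neither of these passed the test. Ing3, a PHD finger protein, ranged from 419.3 to 518.2 in KD1, from 438.1 to 521.8 in KD2 and from 455.6 to 543.5 in lacZ samples. YL-1, whose human counterpart is a chaperone for H2A.Z, ranged from 623.8 to 660.5 in KD1, from 607.6 to 662.8 in KD2 and from 605.9 to 649.1 in lacZ samples. Gas41, a YEATS domain protein whose human counterpart binds acetylated histone H3, had the fewest reads, with 197.5 to 252.3 in KD1, 187.0 to 243.3 in KD2 and 199.0 to 222.1 in lacZ samples. The groups of Ing3, YL-1 and Gas41 overlapped in both comparisons. The 95% interval of Gas41 ran from -0.14 to 0.38 in KD1 and from -0.19 to 0.33 in KD2 on the log2 scale. In KD1 the 95% intervals of all 7 members not called lay inside 1.3-fold, as did those of all 6 in KD2.

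Counting samples instead of fold changes, 5 of 10 members had no overlap with lacZ in KD1 (2 above and 3 below), where 39.5% of all genes tested did not overlap. In KD2 it was 3 of 10 (2 above and 1 below), where the share was 38.1%. Averaging both knockdowns against lacZ, 4 of 10 members were called, beside 27.8% of all genes. These were Nipped-A (-0.93, DESeq2 adjusted p = 1.04e-11), rept (0.32, adjusted p = 3.18e-06), pont (0.28, adjusted p = 1.48e-05) and dom (0.24, adjusted p = 0.00762). The call of dom there was lost without lacZ replicate 1 (0.18, DESeq2 adjusted p = 0.113) and without lacZ replicate 3 (0.20, adjusted p = 0.0836), with a range of 4.94e-09 to 0.114. Between the knockdowns, no member was called in KD1 against KD2 by DESeq2 or by edgeR, beside 0.162% of all genes called by DESeq2. The 4 small subunits had no adjusted p there after independent filtering. None of the 10 had an unadjusted p under 0.05 there, against 5.18% of all genes. The log2 differences ranged from -0.12 to 0.05. For Nipped-A the 95% interval of the difference ran from -0.40 to 0.17, which does not show that both dsRNAs lowered it equally.

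**Figure D2:**
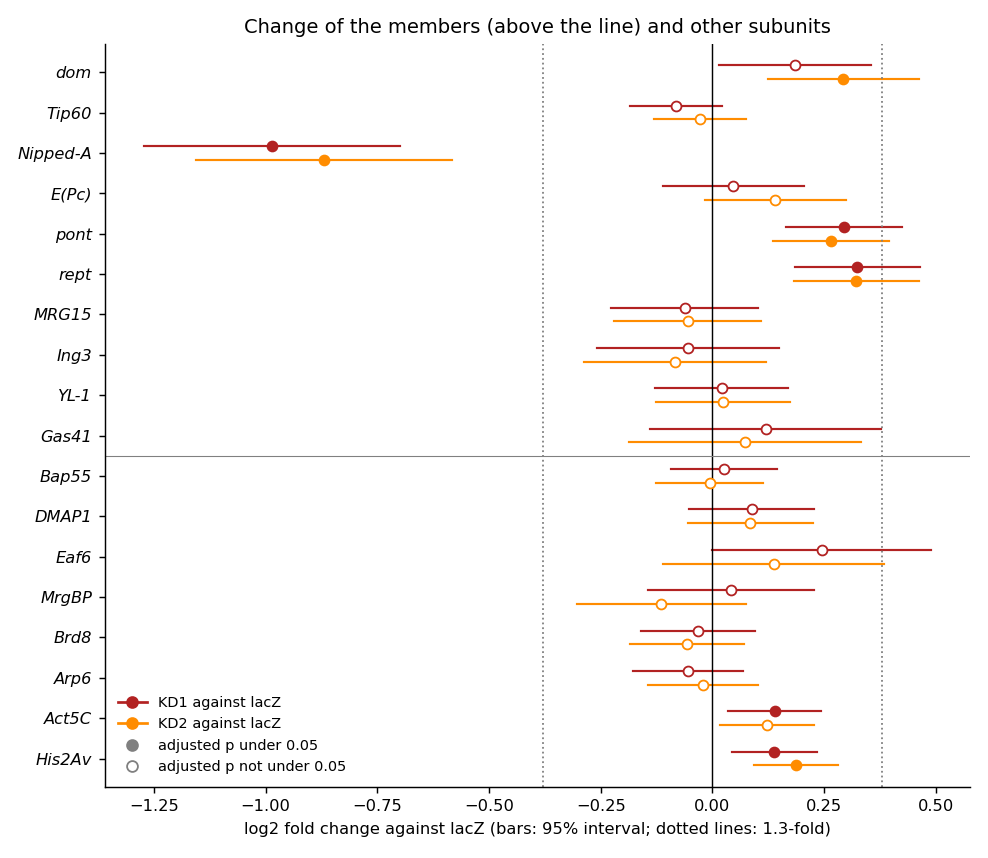
Log2 fold change of each member (above the horizontal line) and of other subunits and His2Av (below it) in KD1 and KD2 against lacZ, with 95% intervals; filled points passed an adjusted p under 0.05 and dotted lines mark 1.3-fold. Only Nipped-A lies beyond a dotted line, at -0.99 in KD1 and -0.87 in KD2.

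Levels were compared per exon length, in RPKM, which divides normalised counts by exon length and library size. In KD1 the order was rept (80.5 RPKM), pont (71.3), Tip60 (56.3), dom (53.8), YL-1 (29.8), MRG15 (22.5), Gas41 (18.4), E(Pc) (17.9), Nipped-A (16.7) and Ing3 (14.2). Sample ranges of neighbours in that order overlapped between Tip60 and dom and from Gas41 down to Ing3. KD2 kept that order for the first 6, and there the ranges overlapped between Tip60 and dom and from MRG15 down to Ing3. In lacZ cells rept (64.3 RPKM), Tip60 (59.6), pont (58.0) and dom (47.3) came first and their neighbouring ranges overlapped, and Nipped-A (33.2) came next, apart from dom above and from YL-1 (29.4) below. Below YL-1 came MRG15 (23.5), E(Pc) (17.3), Gas41 (17.0) and Ing3 (14.7), of which only E(Pc) and Gas41 overlapped. Nipped-A thus stood ninth in KD1 and eighth in KD2, against the fifth place in lacZ cells. The ratio of Nipped-A to dom per exon length was 0.313 ± 0.060 in KD1, 0.318 ± 0.080 in KD2 and 0.707 ± 0.084 in lacZ samples (SD, n = 3). The ratio of Nipped-A to Tip60 was 0.298 ± 0.049 in KD1, 0.311 ± 0.050 in KD2 and 0.557 ± 0.018 in lacZ samples. Neither ratio overlapped between either knockdown and lacZ. The counts of Nipped-A alone did not overlap either, so the ratios are not a separate result.

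**Figure D3:**
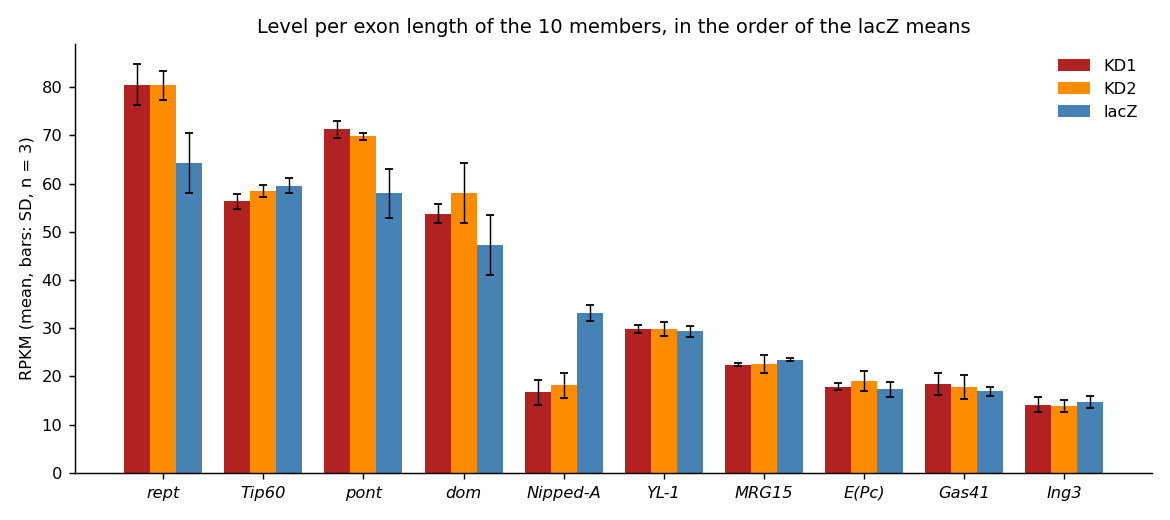
Mean RPKM of each member in KD1, KD2 and lacZ cells, in the order of the lacZ means. Bars start at 0 and error bars are SDs (n = 3). Nipped-A is at 16.7 in KD1 and 18.1 in KD2 against 33.2 in lacZ, and rept is at 80.5 in KD1 and 80.4 in KD2 against 64.3 in lacZ.

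Other subunits of the complexes moved little. Of 8 further subunits, 7 were tested and the actin gene Act87E had almost no reads. In KD1 only Act5C rose (log2 fold change 0.14, DESeq2 adjusted p = 0.0444), and in KD2 none was called. Among all genes tested, 21.2% were called in KD1 and 23.6% in KD2. Act5C is one of the near-identical actin genes, among which reads can be shared, and its call in KD1 was lost under 9 of 21 alternatives. The subunits Bap55, DMAP1, Eaf6, MrgBP, Brd8 and Arp6 were not called and ranged from -0.05 to 0.24 in KD1 and from -0.11 to 0.14 in KD2. The highest of these values belonged to Eaf6, whose normalised counts were 243.9, 214.0 and 236.8 in KD1, 222.5, 203.1 and 218.8 in KD2, and 180.6, 224.0 and 180.2 in lacZ samples. Eaf6 shares 29 exon bases with the antisense gene mthl2, which rose by 1.03 in KD1 and 1.05 in KD2. His2Av, the histone variant on which the complexes act, had 8743, 9177 and 9269 normalised counts in KD1, 9071, 9890 and 9165 in KD2, and 8192, 8272 and 8229 in lacZ samples. Every knockdown sample was above every lacZ sample. His2Av rose by 0.14 ± 0.05 in KD1 (DESeq2 adjusted p = 0.0225) and by 0.19 ± 0.05 in KD2 (adjusted p = 0.000927). Its call in KD1 was lost under 7 of 21 alternatives.

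Partner and sister complexes were listed as well. The share of all genes tested that was called was 21.2% in KD1 and 23.6% in KD2. Of 18 other SAGA genes, which share Nipped-A, none rose or fell in KD1 and only Atxn7 fell in KD2 (-0.23, DESeq2 adjusted p = 0.0264). The 3 INO80 genes tested, which share pont and rept, were not called in either comparison. The gene Ino80 itself was not matched to an identifier and was not analysed here. Of 4 kinases related to Nipped-A, mTor rose in KD2 (0.16, adjusted p = 0.0114). None of 10 Brahma, 8 CHD and NuRD and 6 other acetyltransferase genes was called in KD1 or KD2. Of 8 ISWI genes, 1 rose in KD1 and 2 rose in KD2, where 9.71% and 11.3% of all genes tested rose. Nurf-38, an inorganic pyrophosphatase in the NURF remodeller, was the ISWI gene that rose in both, by 0.19 in KD1 and 0.15 in KD2. Its call was lost under 2 of 21 alternatives in KD1 and 5 of 21 in KD2. No gene of these complexes changed by more than 1.3-fold and passed the test.

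The members differed in gene structure, which the list did not use. Positions are from Ensembl 115 on the BDGP6 assembly. Nipped-A lies on the minus strand of chromosome arm 2R at 5177965 to 5251022, a span of 73058 bases for 11519 bases of exon. Its largest intron is 24460 bases, and 55 annotated transposable elements inside the gene cover 53.9% of the span. An element named diver2 shares 186 exon bases with it. The other 9 members hold no annotated transposable element, and their largest intron is that of dom, at 1124 bases. dom lies on the plus strand of 2R at 21323430 to 21341847, with 13020 bases of exon. E(Pc), also on 2R, has 10946 bases of exon, and none of the other 7 has more than 2413. dom and E(Pc), with exons of similar total length to Nipped-A, had log2 fold changes above 0 in both comparisons. Of these only that of dom in KD2 was called. The part of exon length in the fall of Nipped-A was not tested.

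Some of the genes around Nipped-A fell and others did not. Of 28 tested genes within 500 kb on either side, 7 fell in KD1 (25%, beside 11.5% of all genes) and 6 fell in KD2 (21.4%, beside 12.3%). The 6 that fell in both were lncRNA:CR45471, gus, sxc, TpnC4, kune and scaf. Another 2 rose in KD1 (7.14%, beside 9.71%) and 5 rose in KD2 (17.9%, beside 11.3%). The nearest tested gene, d4, 8 kb away and with a largest intron of 30067 bases, was at -0.04 in KD1 and 0.03 in KD2. On the other side Atf6, 23.2 kb away, fell in KD1 (-0.35, DESeq2 adjusted p = 0.0163) and was at -0.18 in KD2 (adjusted p = 0.290). sxc, the O-GlcNAc transferase 56.3 kb away, fell in KD1 (-0.46) and in KD2 (-0.38). TpnC4, a troponin gene 252.4 kb away, fell in KD1 (-2.27) and in KD2 (-2.51). These neighbours were looked up after the fall of Nipped-A had been seen, and the part of position in that fall was not tested.

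**Figure D4:**
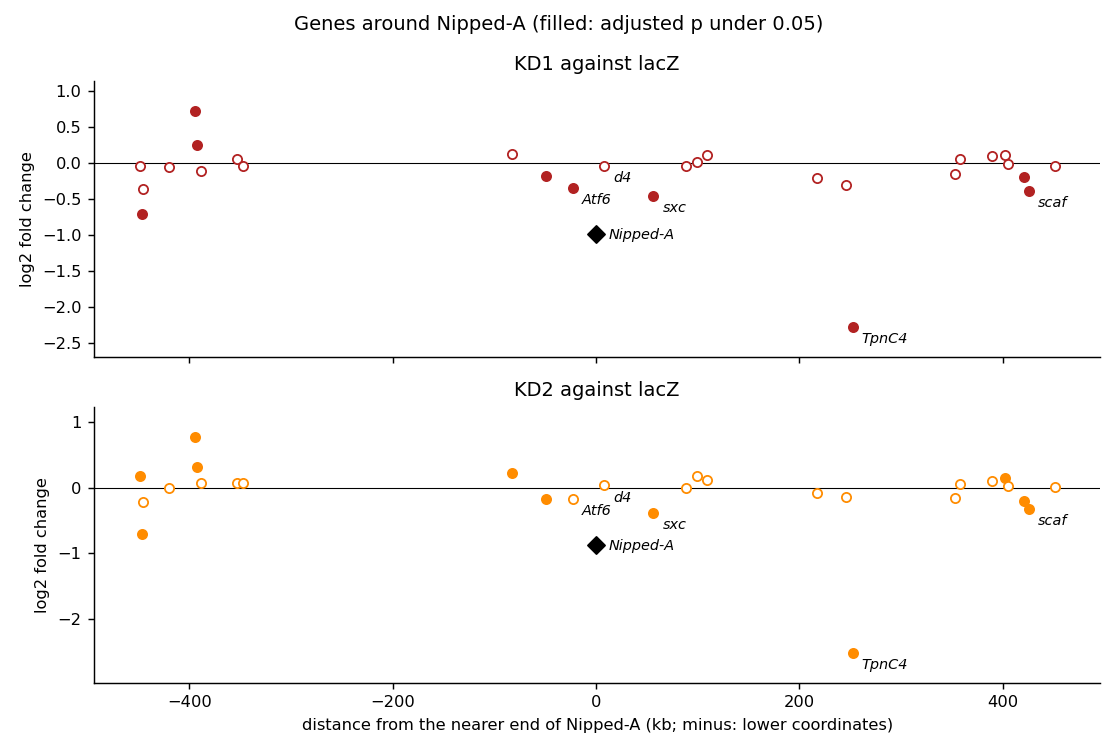
Log2 fold change in KD1 (upper) and KD2 (lower) against lacZ of the 28 tested genes within 500 kb of Nipped-A, by distance in kb from the nearer end of the gene. Filled points passed an adjusted p under 0.05 and the diamond is Nipped-A. The nearest tested gene, d4, is at -0.04 in KD1 and 0.03 in KD2.

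Genes whose pattern was most like that of dom were found by Pearson r of log2(normalised count + 1) with dom over the 9 samples, among 6134 genes outside the complex with a mean CPM above 10. They were Patj (r = 0.99), l(2)k09022 (0.98), obe (0.98), CG42806 (0.97) and MBD-R2 (0.97). These values are a description, and all 9 points share the differences in exon-length slope given above. The exon lengths of these 5 genes ran from 803 bases (CG42806) to 6970 bases (obe), against 13020 for dom. The part of exon length in the likeness was not tested. The log2 fold changes of these 5 genes were between 0.11 and 0.28 in KD1 and between 0.16 and 0.39 in KD2.

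**Figure D5:**
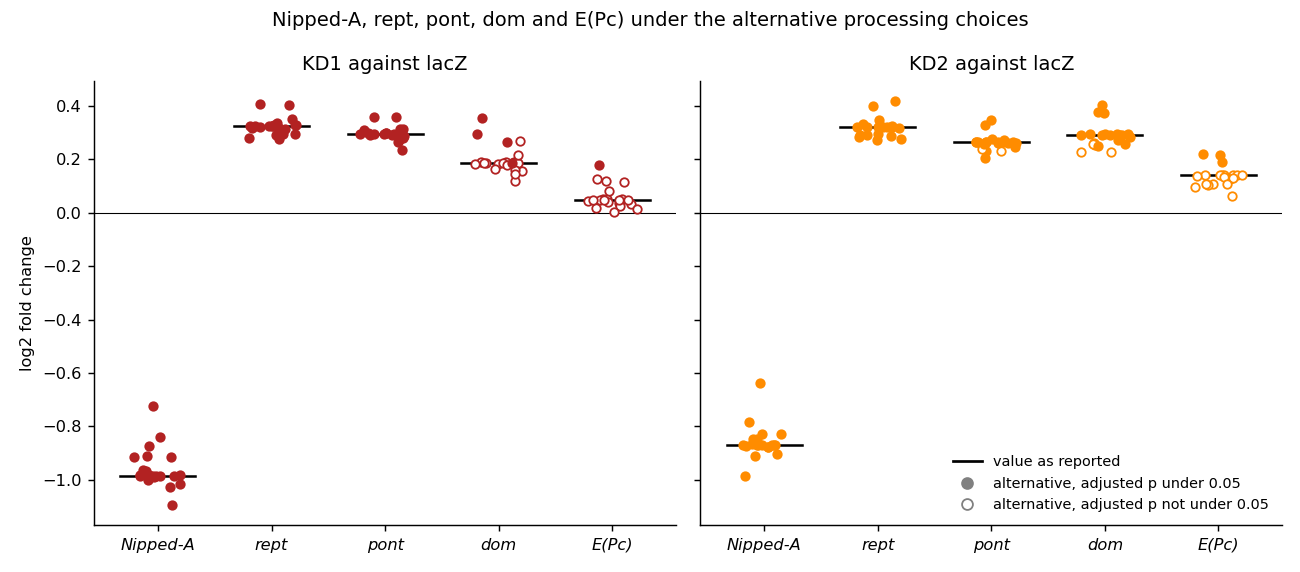
Log2 fold change of Nipped-A, rept, pont, dom and E(Pc) under each alternative processing choice (points) and as reported (lines), in KD1 (left) and KD2 (right) against lacZ. Filled points have an adjusted p under 0.05; Nipped-A and rept are filled throughout, while dom and E(Pc) are filled under some choices only.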

How the data were processed

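The authors aligned paired-end reads of polyadenylated, strand-marked libraries to BDGP6 with STAR (2.5.1b) and counted reads per gene with featureCounts (Subread 1.4.6-p2) on Ensembl 90 models, and deposited them as raw counts, with a file for each sample. Whether counting used strand is not given in the sources used here. Reads of transposons and near-identical copies may be lost or shared, and gene counts sum all isoforms.

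Genes with a mean CPM above 1 over the 9 samples were kept (7406 genes, at least 99.91% of each library's counts). All samples entered a DESeq2 fit by group (version 1.42.0 under R 4.3.3), with median-of-ratios size factors (0.9043 to 1.07), Wald tests, Benjamini-Hochberg adjustment over all genes and independent filtering at 0.1. RPKM used exon lengths of a later Ensembl release and size-factor-scaled libraries. Alternatives were edgeR 4.0.16, other scalings and filters, a normal prior, an exon length correction, a replicate block and each sample left out. Simulated counts were used to test the scripts. Intervals and p-values cover these libraries only. Symbols matched 98.26% of the identifiers, and 4 of 108 list genes were not analysed here.

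Named were all members, all other subunits, up to 3 genes per direction called in both knockdowns from each further list, and the 5 genes most like dom. Pxn, eater, He, crq, srp, elav, aub, bam, Atxn7, mTor and the neighbours and exon-overlapping genes were named after their values were seen. Members and lists were chosen with earlier results of these data known.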

Additional observations from a re-analysis of the deposited data

Results flagged for a closer look

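Hrb87F, the paralogue of Hrb98DE, differed between the knockdowns. Its normalised counts were 2483, 2457 and 2753 in KD1, 1585, 1222 and 1501 in KD2, and 6017, 6322 and 6127 in lacZ samples. The difference was itself tested, at a log2 difference of 0.84 for KD1 minus KD2 (DESeq2 adjusted p = 4.09e-22). No member of the Domino and Tip60 complexes was called in this comparison.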

How the results depend on the processing

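Nipped-A and rept kept their calls against lacZ under all 21 alternatives in KD1 and KD2. Nipped-A ranged from -1.09 to -0.72 in KD1 and from -0.99 to -0.64 in KD2. The 6 same-numbered pairs between groups had a mean correlation of deviations of -0.12 (-0.563 to 0.231), against 0.03 (-0.509 to 0.519) for 21 other pairs. These pairs are few and reuse the same libraries, so they cannot show whether samples with the same number were handled together. With the replicate block, 2 members were called in KD2, also with exon length correction, because pont (0.23, adjusted p = 0.107; with length correction 0.24, 0.0777) and dom (0.25, 0.139; 0.26, 0.0674) did not pass in DESeq2, and dom averaged over both knockdowns did not either (0.22, adjusted p = 0.114). The block called 528 of all genes in KD1, 559 in KD2 and 803 for both, and with length correction 515, 600 and 878, against 1571, 1745 and 2058 as reported. Past 1.3-fold these were 322, 344 and 389, and 296, 333 and 387, against 546, 602 and 606. The normal prior gave 340, 392 and 358 past 1.3-fold.

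With exon length correction and lacZ replicate 2 left out, chosen after seeing the data, 5 members were called in KD1, adding dom (0.36, DESeq2 adjusted p = 6.81e-07) and E(Pc) (0.18, adjusted p = 0.0347), and 1769 of all genes were called. Leaving out each sample called 3 to 4 members in KD1, 3 to 5 in KD2 and 3 to 5 for both, and 883 to 1675, 1072 to 1835 and 1241 to 2170 of all genes. KD1 against KD2 had 12 calls over all genes as reported (384 at an unadjusted p under 0.05), 1 with edgeR, either block or length correction, 2 with that correction and lacZ replicate 2 left out, 3 without independent filtering, 4 on the compared groups alone and 1 to 23 with samples left out. Past 1.3-fold it had 1 as reported and 1 to 4 with samples left out.

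Uncalled values near 0 changed sign. In KD1 these were YL-1 (-0.0086 with total counts, -0.0002 with the block, -0.0111 with block and length correction, -0.0155 with length correction and lacZ replicate 2 left out) and Bap55 (-0.0031 with total counts), and with the last setting also Ing3 (0.0177), MrgBP (-0.0177) and Brd8 (0.0212). In KD2 they were YL-1 (-0.0093 with total counts), Bap55 (0.0076 with length correction, 0.0016 with the block too, 0.0648 with length correction and lacZ replicate 2 left out) and Arp6 (0.0061 with length correction and block, 0.0095 with length correction and lacZ replicate 2 left out). In KD1 against KD2 they were rept (-0.0106 with length correction, -0.0109 with lacZ replicate 2 left out too) and dom (0.0128 with block and length correction). With single samples left out, ranges crossing 0 were -0.0043 to 0.0768 for Bap55, -0.0115 to 0.1093 for MrgBP, -0.1173 to 0.0369 for Ing3, -0.0126 to 0.0413 for YL-1 and -0.0596 to 0.0058 for Brd8 in KD1. In KD2 they were -0.102 to 0.0074 for MRG15, -0.0096 to 0.0654 for YL-1 and -0.0335 to 0.0442 for Bap55. In KD1 against KD2 they were -0.0407 to 0.0313 for rept and -0.2231 to 0.0015 for Nipped-A. The cause of these shifts was not tested. With 3 samples per group, Gas41 and Ing3 had the fewest reads and the widest intervals of the members not called.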

Other observations

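Genes were grouped by largest intron after the structure of Nipped-A had been seen, so the following shares are descriptions. Of 191 tested genes with an intron of 20 kb or more, 34.6% fell in KD1 and 27.7% in KD2. Of 274 genes with a largest intron of 10 to 20 kb, 25.9% fell in KD1 and 21.5% in KD2. Of 1513 genes at 1 to 10 kb it was 20% in KD1 and 17.3% in KD2, and of 5266 genes under 1 kb it was 7.41% in KD1 and 9.82% in KD2. Over all genes tested, 11.5% fell in KD1 and 12.3% in KD2. The shares that rose, from the longest introns to the shortest, were 4.71%, 5.47%, 8.72% and 10.4% in KD1, beside 9.71% of all genes. In KD2 they were 9.42%, 14.6%, 12.8% and 10.6%, beside 11.3%. The median log2 fold change of genes at 20 kb or more was -0.17 in KD1 and -0.07 in KD2. Of 106 genes with at least 25% of their span in annotated transposable elements, 19.8% fell in KD1 and 18.9% in KD2. Another 8.49% of them rose in KD1 and 13.2% in KD2. The 9 members other than Nipped-A have their largest intron between 0 and 1124 bases. None of them fell, which says little beside the shares of all genes in their groups. Under 1 kb, 7.41% of genes fell in KD1 and 9.82% in KD2. At 1 to 10 kb, the group of dom, it was 20% in KD1 and 17.3% in KD2. The part of intron length in the fall of Nipped-A was not tested.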
